A study of Mus musculus with 6 samples.

Results

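The genes described here are Tyr, Tyrp1, Dct, Pmel, Mlana and Gpnmb, which encode the enzymes that make melanin and the structural and membrane proteins of the melanosome. They were chosen by name, as the probe sets paired with exactly 1 of these gene symbols. Each gene had 1 such probe set, so all 6 members were measured, among 19938 named genes in all. Transcript levels came from Melan-Ink4a, an immortal pigment cell line derived from C57BL/6J skin, with the genotype given as Ink4a-ARF1 null. In 3 samples the cells had received 10 nM of NRG1-b1, the growth factor neuregulin 1, over 21 days, and in the other 3 they were untreated, with no matching culture time in the labels. Both groups lacked Ink4a-Arf and grew with 200 nM of the phorbol ester TPA, 200 pM cholera toxin and 10% serum until RNA was taken at 90% confluence. TPA activates protein kinase C and cholera toxin raises cyclic AMP, so the untreated cells were not free of pigment-regulating agents. The comparison addressed what lasting signalling through the neuregulin receptor ERBB3 does to melanocyte gene expression.

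Melanin is made inside the melanosome, an organelle related to the lysosome, which matures from a stage with protein fibrils and no pigment to a dark, filled granule. Tyrosinase, the product of Tyr, oxidises tyrosine in the rate-limiting step, and the related proteins of Dct and Tyrp1 act on later intermediates of eumelanin, the dark pigment. PMEL builds the amyloid fibrils on which melanin is laid down, MLANA (Melan-A) binds PMEL and is needed for its normal processing, and GPNMB is a membrane glycoprotein related to PMEL that also occurs in phagocytes and other cells. The transcription factor MITF is known to bind pigment gene promoters at the M-box, an E-box with flanking bases.

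The sequence upstream of the annotated start is shown for the 4 members that RefSeq's promoter table held (assembly GRCm38.p6), because 3 of them carried the same stretch of letters. These are the 250 bases before the start, 5′ to 3′ on the gene's strand, for Tyr at chr7:87493513-87493762 (minus strand), Tyrp1 at chr4:80833963-80834212 (plus strand), Dct at chr14:118052247-118052496 (minus strand) and Gpnmb at chr6:49036268-49036517 (plus strand). Capitals mark GTCATGTGCT, the longest run of letters common to the Tyr, Tyrp1 and Dct windows on the gene's strand (10 bases), which contains the M-box core TCATGTG.
Tyr: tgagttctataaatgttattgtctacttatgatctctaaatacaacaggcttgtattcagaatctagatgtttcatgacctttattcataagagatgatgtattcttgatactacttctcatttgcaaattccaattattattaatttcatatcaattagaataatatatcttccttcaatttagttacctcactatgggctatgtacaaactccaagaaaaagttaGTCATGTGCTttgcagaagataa
Tyrp1: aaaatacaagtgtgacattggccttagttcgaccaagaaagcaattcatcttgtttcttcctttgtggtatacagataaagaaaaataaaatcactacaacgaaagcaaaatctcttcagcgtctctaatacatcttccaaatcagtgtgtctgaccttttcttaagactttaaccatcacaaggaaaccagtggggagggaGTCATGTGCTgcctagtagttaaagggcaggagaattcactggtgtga
Dct: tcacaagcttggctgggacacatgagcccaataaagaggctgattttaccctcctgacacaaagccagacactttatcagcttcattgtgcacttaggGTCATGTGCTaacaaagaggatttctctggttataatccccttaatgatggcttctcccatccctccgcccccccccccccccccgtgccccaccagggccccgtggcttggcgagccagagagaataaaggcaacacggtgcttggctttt
Gpnmb: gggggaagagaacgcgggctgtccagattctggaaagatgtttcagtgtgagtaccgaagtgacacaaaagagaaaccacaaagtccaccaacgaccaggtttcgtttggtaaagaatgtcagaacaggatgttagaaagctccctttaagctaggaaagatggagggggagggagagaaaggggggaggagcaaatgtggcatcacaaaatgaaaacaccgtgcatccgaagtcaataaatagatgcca
On both strands, GTCATGTGCT was found once each upstream of Tyr, Tyrp1 and Dct, with its first base 23, 48 and 152 bases before the start. Of 32851 promoter windows of this length in the table, 51 held it (0.155%), and 1068 held the shorter TCATGTG (3.25%). Dct carried a second TCATGTG on the opposite strand, beginning 232 bases before the start. The letters CACGTG (in 6.02% of all windows), TGACTCA (4.46%) and TGACGTCA (1.55%) were in none of the 4 windows, and CATGTG, the shared centre of the M-box (12.3%), was not in that of Gpnmb. The motifs were chosen with the sequences in view, and a match is a string of letters, not a measured site.

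The samples matched their cell type by its markers. All 14 melanocyte markers looked up, 5 of which are genes of this set, had a mean over the 6 arrays above 7.17. This is the median over all tested genes on the log2 scale. Trpm1 was above 7.17 in untreated (8.11) but not in NRG1 arrays (7.13). Keratinocyte, leukocyte and endothelial markers had a 6-array mean above 7.17 for 1 of 8, 1 of 6 and 0 of 4 genes, and Schwann cell markers for 1 of 5. Of 8 fibroblast markers 3 had such a mean, and 2 rose with NRG1, the matrix genes Col1a1 (0.86) and Postn (1.88). Postn was below 7.17 in untreated (6.01) and above it in NRG1 arrays (7.89). Col1a2 was at -0.27 (limma, adjusted p = 0.0551), and Pdgfra, Dcn, Lum and Dpt lay below 7.17 and were not called. Among the markers of the other 4 cell types, Gfap of glia (0.24; limma, adjusted p = 0.0375) and Cd68 of macrophages (0.23; adjusted p = 0.0319) rose and 0 fell. The summed log2 signal of the fibroblast list ran from 50.8 to 51.5 in untreated and from 52.9 to 53.4 in NRG1 arrays. Of the 14 melanocyte markers 12 fell, where 8.56% of all tested genes did, and these include the 5 of this set. Mc1r rose (0.32; limma, adjusted p = 0.003) and Sox10 was not called. The melanocyte sum ran from 158.2 to 158.7 in untreated and from 147.9 to 148.4 in NRG1 arrays. The part of the non-melanocyte markers in the falls described next was not tested. Array medians over all probe sets lay between 6.99 and 7.07, and their number, 3 per group, limits the precision. Whether replicate arrays represent independent cultures is not stated, so that p-values refer to the variation among these samples alone, which can be purely technical. RNA came from whole cultures, so that fewer pigmented cells and less RNA per cell cannot be told apart.

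Transcripts of all 6 genes were lower in NRG1-treated cells. By limma with Benjamini-Hochberg adjustment over all tested genes, 6 of 6 fell at an adjusted p under 0.05, where 8.56% of all tested genes fell and 12.3% rose (1707 and 2461 genes). After quantile normalization of the tested genes alone the whole-array split was 2396 that fell and 2257 that rose. On every gene of the set the 3 NRG1 arrays lay below the 3 untreated arrays, as they did for 18.1% of all tested genes. The changes differed widely in size: Mlana dropped to 46.9% of its untreated signal, Pmel to 64.2% and Tyr to 73.1%, whereas Tyrp1, Dct and Gpnmb stayed at 83.7% to 85.7%. The median of the set was -0.35 on the log2 scale, against -0.029 for all tested genes.

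**Figure D1:**
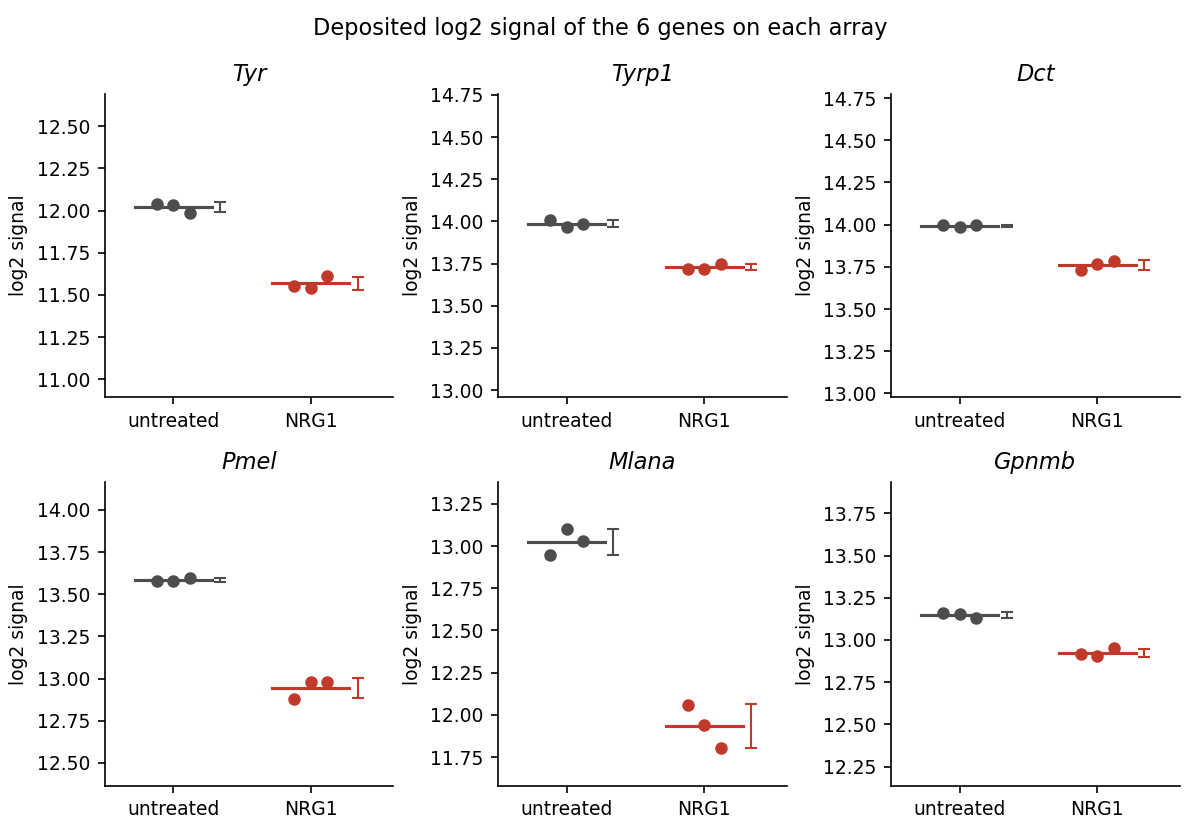
Deposited log2 signal (y axis) of each gene on the 3 untreated (grey) and 3 NRG1 (red) arrays, with the group mean as a line and the SD as a bar beside it; every panel spans the same number of log2 units. The groups do not overlap in any panel, and the step is largest for Mlana, from 13.03 to 11.93, and smallest for Gpnmb, from 13.15 to 12.92.

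Tyr, the gene of the rate-limiting enzyme, had log2 signals of 12.04, 12.03 and 11.99 in the untreated arrays and of 11.55, 11.54 and 11.61 with NRG1. The lowest untreated array stood 0.38 above the highest NRG1 array, several times the range within either group. The change was -0.45 ± 0.0577 (SE; 95% interval -0.58 to -0.32; limma, adjusted p = 0.000274). Ranked by fall, it was number 416 of the 19938 genes.

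Tyrp1 encodes a tyrosinase-related protein that acts late in eumelanin synthesis and stabilises tyrosinase. Its untreated signals were 14.01, 13.97 and 13.98, and those with NRG1 were 13.72, 13.72 and 13.75. The groups were apart by 0.22. The change of -0.26 ± 0.056 (SE; 95% interval -0.38 to -0.13) passed the test (limma, adjusted p = 0.00805).

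Dct encodes dopachrome tautomerase, which converts dopachrome to its carboxylated indole. Its 3 untreated arrays were nearly equal, at 14.00, 13.99 and 14.00, and the NRG1 arrays were at 13.73, 13.77 and 13.79. All 3 NRG1 values were lower, with 0.20 between the groups and a change of -0.23 ± 0.0561 (SE; limma, adjusted p = 0.0136). This call was the less secure of the enzymes: it was lost without NRG1 replicate 1 (-0.22, limma, adjusted p = 0.0594) or untreated replicate 1 (-0.23, adjusted p = 0.0536). It was also lost when the tested genes alone were quantile-normalized (-0.085, limma, adjusted p = 0.25), in a range of adjusted p from 2.95e-05 to 1 over 17 alternatives.

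Pmel, the gene of the fibril protein, was tightly grouped in untreated cells at 13.58, 13.58 and 13.60. With NRG1 it was at 12.88, 12.98 and 12.98, so that a gap of 0.60 separated the groups. It fell by 0.64 ± 0.0594 on the log2 scale (SE; 95% interval -0.77 to -0.51; limma, adjusted p = 2.95e-05), and its place by fall was 213.

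Mlana, whose product acts with PMEL in the early melanosome, changed most. Its untreated arrays read 12.95, 13.10 and 13.03, and its NRG1 arrays 12.06, 11.94 and 11.80. It also varied most within groups, with an SD of 0.129 in NRG1 and 0.0777 in untreated arrays, yet the gap between the groups was 0.89. The fall was 2.13-fold, a change of -1.09 ± 0.078 (SE; 95% interval -1.26 to -0.92; limma, adjusted p = 4.61e-06), which was number 69 among all genes.

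Gpnmb, the PMEL relative, had the smallest change. Its signals were 13.16, 13.15 and 13.13 without NRG1 and 12.92, 12.91 and 12.95 with it. The NRG1 arrays were again all lower, by at least 0.18, and the change was -0.22 ± 0.0561 (SE; 95% interval -0.35 to -0.098; limma, adjusted p = 0.0171). The call was lost without NRG1 replicate 1 (limma, adjusted p = 0.0604), NRG1 replicate 2 (0.0621) or untreated replicate 1 (0.0702), with changes from -0.22 to -0.21. The size depended on the scaling, from -0.13 after quantile normalization of the tested genes alone (limma, adjusted p = 0.103) to -0.33 after quantile normalization of all probe sets, and adjusted p over 17 alternatives ran from 0.000111 to 1.

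**Figure D2:**
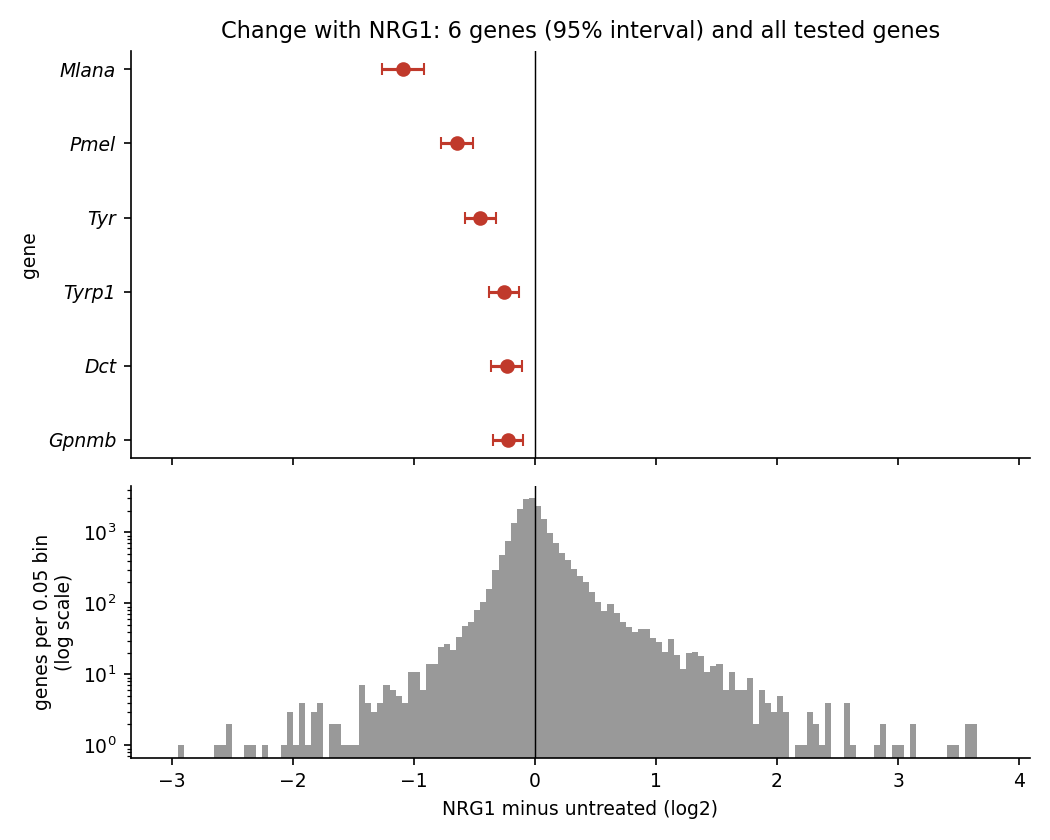
Upper panel: change with NRG1 (x axis, log2) of each gene, with its 95% interval from limma. Lower panel: the number of all 19938 tested genes at each change, on a log count axis; the 6 genes lie left of 0, from -1.09 for Mlana to -0.22 for Gpnmb.

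Against a minimum change of 1.2-fold rather than 0, 2 of the 6 genes passed (limma treat, adjusted p under 0.05), where 1.72% of all tested genes did so as falls. They were Mlana and Pmel, and Tyr just missed (limma treat, adjusted p = 0.067).

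Differences between the genes were also taken within each array. Subtracting one gene's log2 signal from another's on the same array removes any factor that an array applies to all its probe sets alike, and 15 pairs can be formed. In 13 of the 15 pairs the NRG1 and untreated differences did not overlap. Pairs that share a gene are not independent of each other. How often the groups stay apart in pairs of other genes was not tested, so this count has no background share beside it. With 3 arrays against 3 an exact permutation test cannot go below p = 0.1, which these 13 reached (two-sided; adjusted p = 0.115 over the 15 pairs). No pair could therefore pass a threshold of 0.05, and the shifts that follow are given as descriptions of these arrays.

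Mlana was lower relative to each of the other 5 genes on all 3 NRG1 arrays than on any untreated array. Mlana minus Gpnmb was -0.12 ± 0.0843 in untreated and -0.99 ± 0.147 in NRG1 arrays (SD, n = 3 each), a shift of -0.87. Against Pmel, its partner protein's gene, the shift was smaller: Pmel minus Mlana went from 0.56 ± 0.0759 to 1.01 ± 0.182 (SD, n = 3 each), by 0.45.

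For Tyr, the rate-limiting enzyme, against its relatives, Tyr minus Tyrp1 shifted by -0.19 ± 0.0205 (SE) and Tyr minus Dct by -0.22 ± 0.0241. Tyr minus Pmel lay between -1.61 and -1.54 in the untreated arrays and between -1.44 and -1.33 in the NRG1 arrays. The groups did not overlap in any of these 3 pairs, and with 3 arrays per group none could pass the test.

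Among the 3 genes of smallest change the order was not resolved. Tyrp1 minus Dct moved by -0.024 ± 0.0152 (SE) and Dct minus Gpnmb by -0.010 ± 0.0186, with overlapping groups in both (exact permutation, p = 0.3 and p = 0.7). Tyrp1 minus Gpnmb moved by -0.034 as deposited and by 0.11 after quantile normalization of all probe sets, so its direction depended on the scaling. The direction of Dct minus Gpnmb did too, with 0.13 after that normalization.

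The genes of smallest change had signals near the top of the array's scale, where array signals in general can be compressed. The highest signal of any probe set was 14.50 to 14.59 per array. Of the 16 tested genes with a mean of 13 or more, 4 belong to the set: Dct, Tyrp1, Pmel and Gpnmb. Among the other 12, limma called a fall for Vim (-0.28, adjusted p = 0.0048) and a rise for Actb (0.32, adjusted p = 0.00238), cytoskeletal genes named after their values were seen. The median absolute change was 0.135 in this bright class, with the 4 genes of the set counted in it. It was 0.215 for the 334 genes at 11 to 13, which hold Mlana and Tyr, 0.166 at 9 to 11, 0.117 at 7 to 9 and 0.0814 below 7. Pmel, with a mean of 13.27, changed by -0.64 within the bright class. Of the 334 genes at 11 to 13, 87 fell (26.0%), a higher share than among all tested genes, and 96 rose. What part compression has in the small changes was not tested.

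**Figure D3:**
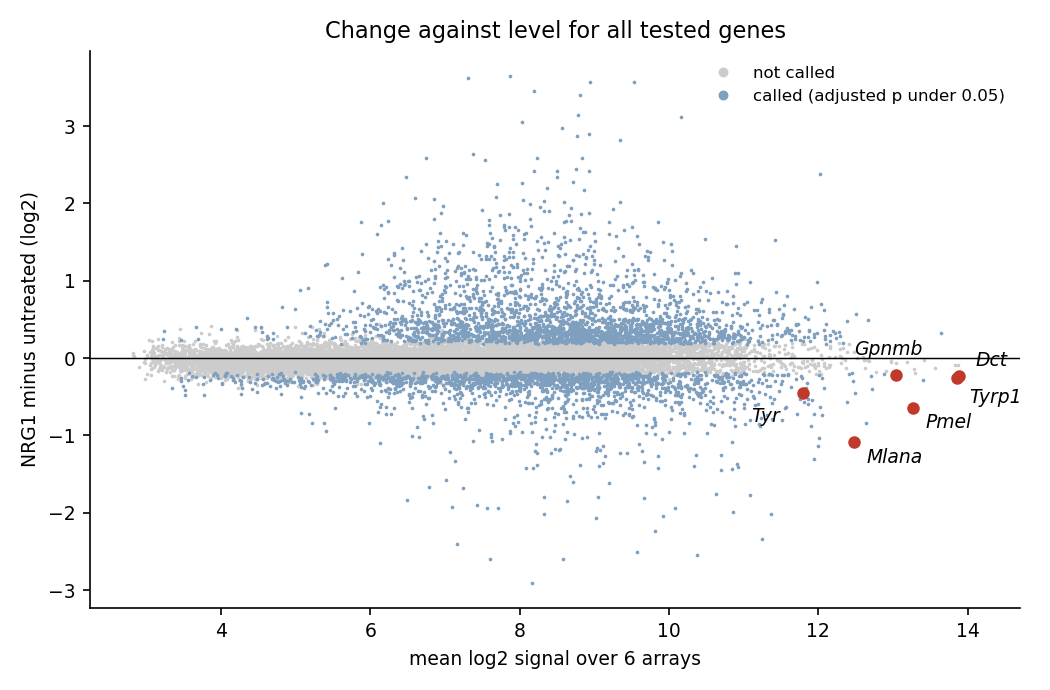
Change with NRG1 (y axis, log2) against the mean signal over 6 arrays (x axis, log2) for all tested genes, grey where not called and blue where called by limma, with the 6 genes in red. Dct and Tyrp1 sit near 13.9 at the right end, and Mlana, at 12.5, lies lowest of the 6.

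The profiles most like each gene were found by the root mean square distance between mean-centred log2 values over the 6 arrays, which reflects the size of the fall more than anything else. Within the set, Dct was about equally close to Gpnmb and to Tyrp1 (0.0193 each), the smallest distances, and Mlana and Gpnmb were farthest apart (0.445). Outside it, Tyr had Smpdl3a (0.0181), Ap1s2 and St3gal6 as nearest genes, and Pmel had Rnf149 (0.0213), Tapt1 and Ptgds. The nearest to Mlana were Tpbg (0.0565), Sucnr1 and Nrbp2, at a larger distance than for any other gene of the set. Tyrp1 was nearest to Sugct (0.0108), Trip12 and Vim, and Dct to Gja4 (0.0113), Gcat and the lysosomal membrane gene Lamp2. Gja4 and Lamp2 also came next to Gpnmb, behind Pdha1 (0.0137).

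Genes that supply ions and copper to the melanosome included larger falls than any of the 6 pigment genes. Of all tested genes 8.56% fell and 12.3% rose. Falls were more frequent at brighter levels, with 16.2% of genes at 9 to 11 and 26.0% at 11 to 13. Rises were also more frequent in these classes, and outnumbered the falls. At 9 to 11, 817 of 3195 genes rose and 517 fell, and at 11 to 13, 96 of 334 rose and 87 fell. Of 13 transporters and receptors, 8 fell and 2 rose (limma, adjusted p under 0.05), and the median log2 change was -0.27. The steepest falls were those of Oca2, which controls melanosomal chloride and pH (-1.77 ± 0.0722, SE), of the melanosomal receptor gene Gpr143 (-1.53 ± 0.0714) and of the cation exchanger gene Slc24a5 (-1.37 ± 0.0633). The 2 that rose both carry copper, the metal of the tyrosinase active site: Slc31a1 takes it up into the cell (0.47 ± 0.0707) and Atp7a pumps it into the secretory pathway and melanosome (0.39 ± 0.0603). Atox1, the copper chaperone between them, was at -0.11 and not called (limma, adjusted p = 0.278).

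Most genes of the machinery that sorts tyrosinase and TYRP1 to the melanosome were not called. Of 28 genes 6 fell, 2 rose and 20 were not called, with a median of -0.061. The shares over all tested genes were 8.56% for falls and 12.3% for rises, so rises were no more frequent in this list. The falls included Hps4, a subunit of the exchange factor for RAB32 and RAB38 (-0.70 ± 0.064, SE), and both of these small GTPase genes, Rab38 (-0.63 ± 0.0598) and Rab32 (-0.56 ± 0.0616). Ap3m1, a subunit of the AP-3 adaptor, rose by 0.50 (limma, adjusted p = 0.00027). The other AP-3 genes listed, Ap3b1, Ap3d1, Ap3s1 and Ap3s2, were not called, at -0.0915, -0.0766, 0.20 and -0.19. The AP-1 subunit gene Ap1m1 rose by 0.23 (limma, adjusted p = 0.0359), a call lost under 7 of 17 alternatives. These included the fits without NRG1 replicate 1 or 2 and without untreated replicate 1 or 3, at 0.19 to 0.24 (limma, adjusted p from 0.0907 to 0.128), within a range from 0.00507 to 1 over all.

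Genes for the cutting of PMEL and GPNMB and for fibril handling fell more often than they rose. Of 14 measured, 6 fell and 2 rose, where 8.56% and 12.3% of all tested genes did so. The share of rises was thus near that over all tested genes. The other 6 were not called, and the median of the list was -0.13. Apoe, whose lipoprotein helps PMEL fibrils form on vesicles inside the melanosome, was the steepest fall (-0.88 ± 0.0603, SE), followed by Bace2, a protease that cuts PMEL (-0.79 ± 0.0721), and the tetraspanin gene Tspan10 (-0.76 ± 0.0768). Adam17, a sheddase gene, rose by 0.41 (limma, adjusted p = 0.000837), while Adam10, which sheds GPNMB, was at -0.084 (adjusted p = 0.362). The gamma-secretase gene Ncstn rose by 0.24 (limma, adjusted p = 0.0225), lost in each fit that left out 1 array except the one without untreated replicate 2, at 0.21 to 0.26 (adjusted p from 0.0503 to 0.0944, and from 0.00229 to 1 over 17 alternatives).

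Of 12 measured genes for substrates, cofactors and side reactions of melanin chemistry, 3 fell, 2 rose and 7 were not called. The median was -0.062, and the shares over all tested genes were 8.56% for falls and 12.3% for rises. Slc3a2, a chain of the amino acid carrier that imports tyrosine among others, fell by 0.57. Slc7a5, of the same list, was at 0.10 and not called (limma, adjusted p = 0.308). Ctns, the cystine exporter of lysosomes and melanosomes, fell by 0.46. Mif, whose product has a dopachrome tautomerase activity of unsettled role, rose by 0.46 (limma, adjusted p = 0.00374). Its paralog Ddt fell by 0.30 (limma, adjusted p = 0.0381), and Gch1, for the pterin cofactor pathway, rose by 0.29 (adjusted p = 0.0382). Both of these calls depended on the processing and on which arrays were used. With all arrays kept, Ddt was not called after median centring (limma, adjusted p = 0.058). Gch1 was not called with the replicate block (limma, adjusted p = 0.0732) or after quantile normalization of the tested genes alone (adjusted p = 0.0743). That of Ddt was lost without NRG1 replicate 2 or 3 or untreated replicate 2 or 3 (limma, adjusted p from 0.0557 to 0.133 and changes from -0.34 to -0.22), within 0.0106 to 1 over 17 alternatives. That of Gch1 was lost without NRG1 replicate 1 or 3 or untreated replicate 1 or 3 (limma, adjusted p from 0.0875 to 0.13 and changes from 0.23 to 0.30), within 0.0105 to 1 over 16. Without NRG1 replicate 3, or without untreated replicate 3, 3 genes of this list were called in place of 5.

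Of 18 transcription factors known at pigment gene promoters, 5 fell, 1 rose and 12 were not called, with a median of -0.12. The shares over all tested genes were 8.56% for falls and 12.3% for rises. Mitf, which binds the M-box, was at 11.67 ± 0.0365 in untreated and 11.14 ± 0.0178 in NRG1 arrays (SD, n = 3 each), a change of -0.53 (limma, adjusted p = 8.50e-05). Its relatives Tfe3, Tfeb and Tfec and the upstream factor Sox10 were not called, with changes of 0.0016, -0.079, 0.034 and 0.056. Tfap2b had the steepest fall (-1.20 ± 0.0675, SE), then Irf4, which acts with MITF on Tyr (-0.78 ± 0.0725), and Pax3 (-0.53 ± 0.0558). Lef1, which mediates Wnt signals and is known to act on the Dct promoter, was the 1 that rose, by 1.04 ± 0.0848 (limma, adjusted p = 1.19e-05).

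Melanosomes share many components with lysosomes. Of all tested genes 8.56% fell and 12.3% rose. Among 15 measured genes of the lysosome linked to the MITF and TFE factors, 5 fell, 0 rose and 10 were not called. Their median was -0.034. Atp6v0d2, a proton pump subunit gene, fell by 1.90 ± 0.111 (SE), Atp6v1b2, another subunit gene of the pump, by 0.44 ± 0.0556 and Lamp1 by 0.38 ± 0.0568. Ctsd and Ctsb, for the abundant lysosomal proteases, were at -0.034 and -0.024 and were not called.

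**Figure D4:**
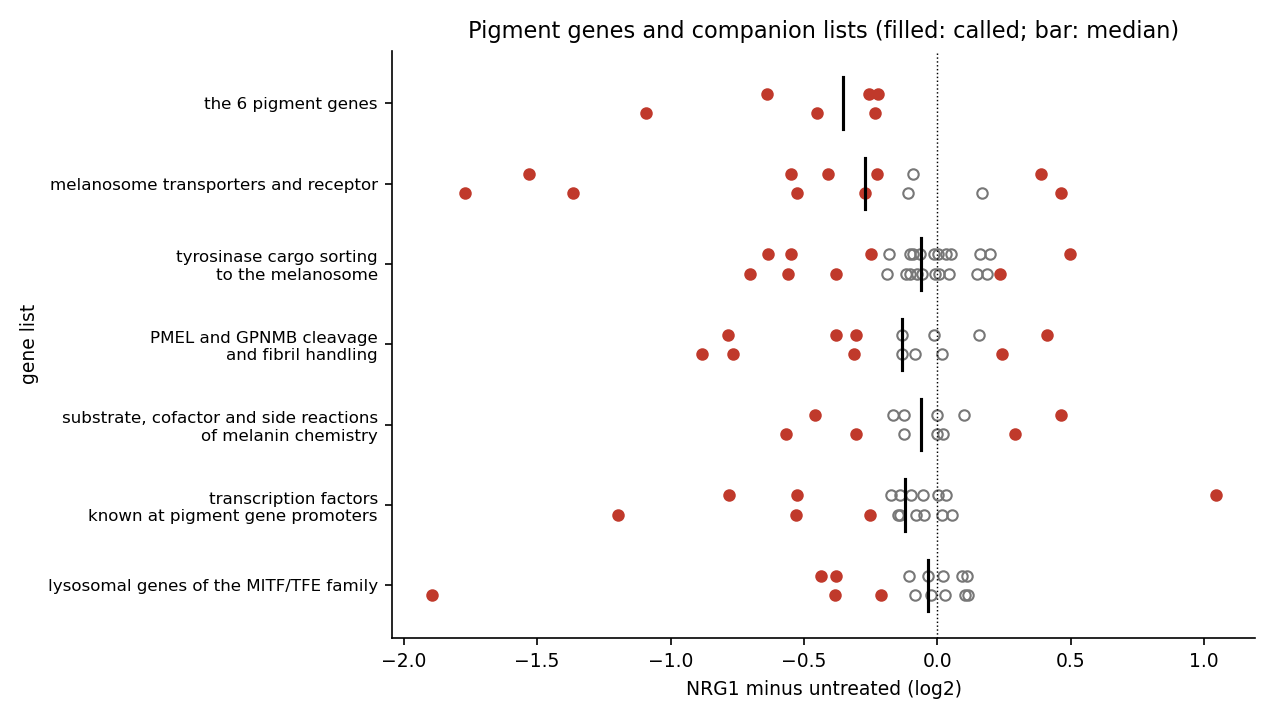
Change with NRG1 (x axis, log2) of each measured gene in the 6 pigment genes and in 6 companion lists (y axis); filled points were called by limma, open points were not, and the bar is the list's median. The pigment genes lie wholly below 0 with a median of -0.35, and the lysosomal list centres at -0.034 with Atp6v0d2 far to the left.

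The M-box letters were also looked up across the other genes. Besides Tyr, Tyrp1 and Dct, 458 tested genes had TCATGTG in the 250 bases before a start, of which 39 fell (8.52%) and 44 rose (9.61%). Among all 15614 tested genes with a window the shares were 8.54% and 12.9%. The longer GTCATGTGCT was upstream of 5 other tested genes, named after the search: Dclk1 fell by 0.41 (limma, adjusted p = 0.00117), and C1qb (-0.18), Micalcl (-0.16), Sntn (-0.047) and Tmem140 (-0.22) were not called. C1qb, Micalcl and Sntn had mean signals under 7.17 in both groups.

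**Figure D5:**
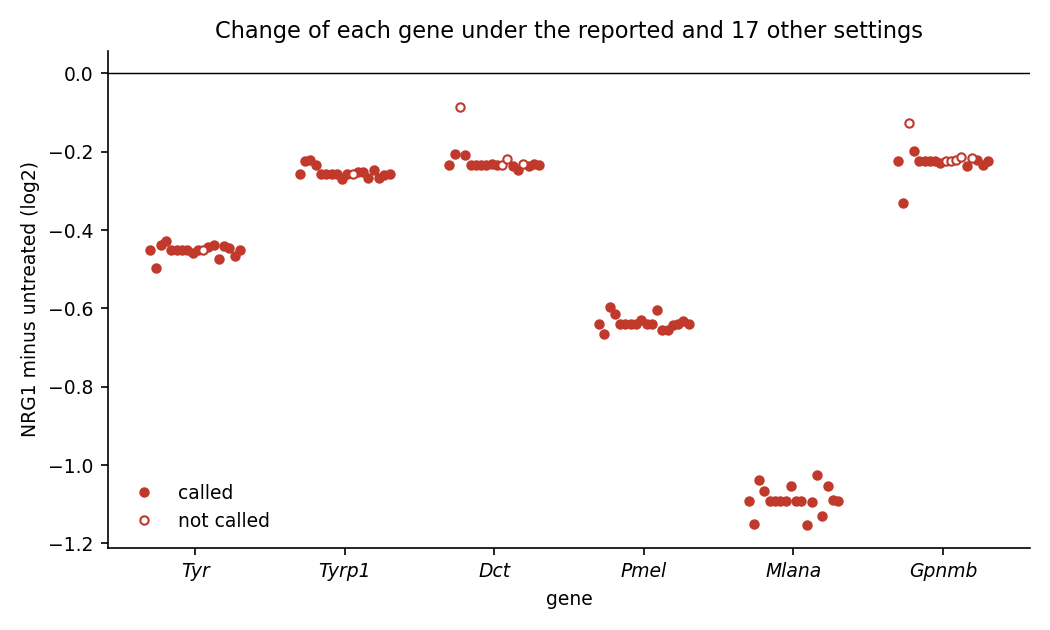
Change with NRG1 (y axis, log2) of each gene under the reported setting and 17 others, left to right within a gene; filled points passed the test at an adjusted p under 0.05 and open points did not. Every point lies below 0, several of them at the reported change because those settings alter the test and not the change. Mlana and Pmel are filled throughout, and Dct and Gpnmb have open points at -0.085 and -0.13.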

How the data were processed

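RNA of 6 samples (200 ng each) was hybridised to Affymetrix mouse GeneChip ST arrays. The deposited values are on a log2 scale, as read from their range, and GCOS and RMA are named in the submitters' processing notes; versions, settings and the genome build were not given in the sources used here. RMA usually corrects background, normalizes between arrays and summarises probe sets. Array signals can be compressed near background and near saturation. Of 35557 probe sets, 21789 had 1 gene in the platform annotation, 1621 several and 12147 none here. The brightest probe set stood for each of 999 genes with more than 1, which left 19938 genes, without a filter on level. limma 3.58.1 in R 4.3.3 (lmFit, eBayes, 2 group means, 2-sided) was fitted to all genes with Benjamini-Hochberg adjustment, and was tested on simulated data. A gene "fell" or "rose" where its adjusted p was under 0.05, and changes are NRG1 minus untreated.

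The members, 6 companion lists and 6 marker lists were chosen with earlier results of these data known. Named from each companion list were up to 3 called genes per direction with the largest change, and the 3 nearest profiles of each member; other names are marked as such or give context. Alternatives covered 2 quantile normalizations (that of the tested genes alone was added after the data were seen), median centring, filters on dim genes, other uses of probe sets, trend and robust prior, array weights, a replicate block, a minimum change, and leaving out each array. Promoters came from RefSeq (GRCm38.p6), where 4 of the 6 members had an entry; Pmel and Mlana did not match. A different background correction was not run, since probe-level signals were not used here. No value column lacked a sample.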

Additional observations from a re-analysis of the deposited data

How the results depend on the processing

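All 6 genes kept a negative change under each of the 17 alternatives, and Mlana (-1.15 to -1.02) and Pmel (-0.66 to -0.60) passed the test under all of them. Filters on dim genes, uses of probe sets, trend and robust prior, the replicate block and the minimum change returned the reported change itself. Its sign could differ only under the normalizations, the array weights and the fits without an array. Testing against a minimum change of 1.2-fold called 1225 genes, and ended the calls of Tyr (-0.45, limma treat, adjusted p = 0.067), Tyrp1 (-0.26), Dct (-0.23) and Gpnmb (-0.22). It left 5 called genes among the transporters, 5 in cargo sorting, 3 in PMEL and GPNMB cleavage, 1 in melanin chemistry and 1 among the lysosomal genes. Quantile normalization of the tested genes alone gave -0.085 for Dct and -0.13 for Gpnmb, neither called. In fits without a single array Dct ran from -0.25 to -0.22 and Gpnmb from -0.24 to -0.21, and the melanin chemistry list had 3 to 4 called genes. The cargo sorting list had 13 called genes without genes below the median level, and 13 with an intensity trend and robust prior.

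Some within-array differences moved by more than their spread under the quantile normalizations, and none did so in the fits without a single array. Median centring and the mean of probe sets could not move them, since centring cancels within an array and each gene had 1 probe set. With all probe sets normalized the shifts were -0.27 for Tyr minus Tyrp1, -0.29 for Tyr minus Dct, -0.16 for Tyr minus Gpnmb, 0.44 for Tyrp1 minus Pmel, 0.46 for Dct minus Pmel, 0.13 for Dct minus Gpnmb and -0.33 for Pmel minus Gpnmb. Tyrp1 minus Gpnmb changed sign, to 0.11, and so did Dct minus Gpnmb, from -0.010 as deposited. With the tested genes alone they were -0.35 for Tyr minus Dct, -0.31 for Tyr minus Gpnmb, -0.14 for Tyrp1 minus Dct, -0.095 for Tyrp1 minus Gpnmb, 0.51 for Dct minus Pmel, 0.042 for Dct minus Gpnmb and -0.47 for Pmel minus Gpnmb. The cause was not tested.

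Replicate numbers are shared between the groups but did not pair the arrays: deviations of same-numbered arrays from their group means correlated at -0.095, -0.164 and 0.0739, and 1 of 6 arrays correlated best with its own number. With the replicate number as a block 3609 genes were called, and Gpnmb was at -0.22 (limma, adjusted p = 0.0501). The other 5 genes kept their calls under the block. The number of arrays, 3 per group, limits the precision of each value, and whether the brightest signals were compressed was not tested.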
